A study of Mus musculus with 6 samples.

Results

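Transcription factors of the primitive streak are described here in mouse cells on day 3 of differentiation from embryonic stem cells. The group consists of 7 genes named by their symbols (T, Mixl1, Evx1, Eomes, Gsc, Lhx1 and Mesp1). They were chosen with earlier results of these data known. The members on the array are all non-control probes whose RefSeq identifier maps to one of these symbols. All 7 genes were found among the 18753 genes named on the array, through 8 of its 41174 probes. Every one of the 7 was among the 14529 genes tested, with signal well above background on all 6 arrays. Their RefSeq identifiers on the array are NM_009309 (T), NM_013729 (Mixl1), NM_007966 (Evx1), NM_010136 (Eomes), NM_010351 (Gsc), NM_008498 (Lhx1) and NM_008588 (Mesp1).

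The cells were of strain 129/Ola and had been plated on gelatin in serum-free N2B27 medium, where embryonic stem cells tend toward neural fates. They were treated for 24 h with the solvent DMSO (3 samples) or with the histone deacetylase inhibitor trichostatin A (TSA, 3 samples). The replicates are labelled as independent experiments, and the DMSO and the TSA sample of an experiment were hybridised to 1 slide, at positions 3 and 4. Position and treatment cannot be told apart, and the labels give neither the TSA dose nor the name of the cell line.

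The primitive streak is the site in the early embryo where epiblast cells leave the epithelium and become mesoderm and definitive endoderm. Nodal, Wnt and BMP signals induce it, and the transcription factors described here are among the first genes they switch on. T, Mixl1, Evx1 and Mesp1 are best known from the posterior streak and the mesoderm that emerges from it, while Eomes, Gsc and Lhx1 are also genes of the anterior streak, the organizer and the endoderm.

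Promoters of 6 members were matched in the RefSeq promoter table, each as a window from 250 bases before to 50 bases after the annotated start. Mixl1 had no entry. The promoters of T, Evx1 and Mesp1 are shown because these genes had 3 of the 4 largest differences between treatments in the group, and that of Lhx1 because it had the smallest. Capitals mark every match, on either strand, to AGGTGT (core of T-box sites), TCAAAG (core of TCF/LEF sites, through which Wnt signals act), ATTTGCAT (the octamer of POU factors), TATAAA (the TATA box), TAATTA (a homeodomain core) or AATCCACA (a FOXH1 site). The windows are given 5′ to 3′ on the gene's own strand, with coordinates of build GRCm38.p6.
T, chr17:8434173-8434472, plus strand: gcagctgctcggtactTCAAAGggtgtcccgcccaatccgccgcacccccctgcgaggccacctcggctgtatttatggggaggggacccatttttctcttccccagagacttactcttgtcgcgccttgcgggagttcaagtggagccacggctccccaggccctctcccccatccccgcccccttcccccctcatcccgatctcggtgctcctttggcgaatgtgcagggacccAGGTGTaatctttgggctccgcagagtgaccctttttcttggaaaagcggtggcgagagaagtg
Evx1, chr6:52313248-52313547, plus strand: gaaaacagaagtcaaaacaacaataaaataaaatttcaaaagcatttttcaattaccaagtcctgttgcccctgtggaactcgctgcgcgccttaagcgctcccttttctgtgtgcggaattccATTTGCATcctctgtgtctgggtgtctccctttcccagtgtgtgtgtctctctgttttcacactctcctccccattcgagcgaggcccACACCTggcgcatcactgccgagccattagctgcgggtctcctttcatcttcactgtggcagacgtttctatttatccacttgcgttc
Mesp1, chr7:79793541-79793840, minus strand: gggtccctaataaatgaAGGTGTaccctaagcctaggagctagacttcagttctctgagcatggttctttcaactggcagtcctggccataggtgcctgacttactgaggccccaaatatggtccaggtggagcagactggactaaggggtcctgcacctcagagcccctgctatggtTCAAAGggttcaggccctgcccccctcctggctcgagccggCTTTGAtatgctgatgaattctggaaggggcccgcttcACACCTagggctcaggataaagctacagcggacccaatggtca
Lhx1, chr11:84525485-84525784, minus strand: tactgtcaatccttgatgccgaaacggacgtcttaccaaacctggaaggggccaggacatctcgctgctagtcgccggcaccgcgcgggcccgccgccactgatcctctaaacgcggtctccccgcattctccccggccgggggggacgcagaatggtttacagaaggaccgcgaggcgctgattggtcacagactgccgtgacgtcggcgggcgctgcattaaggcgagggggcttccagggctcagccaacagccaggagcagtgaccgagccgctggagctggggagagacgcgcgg

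AGGTGT was found in the windows of 3 members, T, Evx1 and Mesp1, against 13.7% of all 32851 promoter windows of the same length. Counted from the annotated start, it lay at -14 to -9 in T and at -38 to -33 in Evx1, and Mesp1 held it at -233 to -228 and again at 7 to 12. TCAAAG was found in T and, at 2 places, in Mesp1, against 16.0% of all windows. The octamer was found in Evx1 (1.74% of all windows), and TATAAA among the members only in Gsc (13.6% of all windows), at -164 to -159. TAATTA (5.29% of all windows) and AATCCACA (0.855%) were in none of the 6 windows, and no matches overlapped each other. The windows held 17 CpG dinucleotides in T, 12 in Evx1, 4 in Mesp1 and 31 in Lhx1, against a median of 7 over all promoters. A match is a description of these letters only. The motifs were picked after the promoters and the expression values had been seen.

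Levels are given as log2 of the processed signal minus the 75th percentile of the same array, so a level of 0 lies at the array's 75th percentile and a step of 1 is a doubling. Probes differ in brightness, so levels are compared between arrays and never between genes. The 75th percentile lay between 311 and 926 intensity units, and the lowest was that of TSA replicate 2. This array correlated at 0.931 and 0.939 with its group, while all remaining pairs within groups reached 0.984 to 0.990. The control RNAs added to the samples differed by 1.35 between the TSA and DMSO arrays of slide 2, and by 0.04 and 0.11 on slides 1 and 3. The part of this array in the results was not tested beyond the alternatives given. In bulk samples, a change in the number of cells of a type cannot be told apart from a change in RNA per cell. Precision is limited by having 3 arrays in each group.

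Each member had a higher mean level in TSA than in DMSO (58.1% of all tested genes did). No member passed the test of TSA against DMSO over all probes (limma, Benjamini-Hochberg adjusted p under 0.05), which called 1.36% of tested genes higher and 0.0551% lower. Mixl1 and Evx1, 2 of the members, had an unadjusted p under 0.05 toward TSA, as did 12.1% of tested genes. In a fit blocked by slide, which sets each TSA sample against the DMSO sample of its own experiment, 3 of 7 members rose, Mixl1, Evx1 and Mesp1, where 3.19% of tested genes were called higher and 0.145% lower. The median difference of the members was 1.57, against 0.08 over all tested genes. On all 3 slides TSA was higher than DMSO for 5 of 7 members (32.6% of tested genes, with 21.4% lower on all 3), and for none of the members did all TSA arrays lie above all DMSO arrays (16.4% of tested genes, with 8.29% below). The count of 5 depended on the scaling between arrays: 3 members, Mixl1, Evx1 and Mesp1, were higher on all 3 slides before scaling (11.7% of tested genes) and when scaled to the added control RNAs (7.37%).

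**Figure D1:**
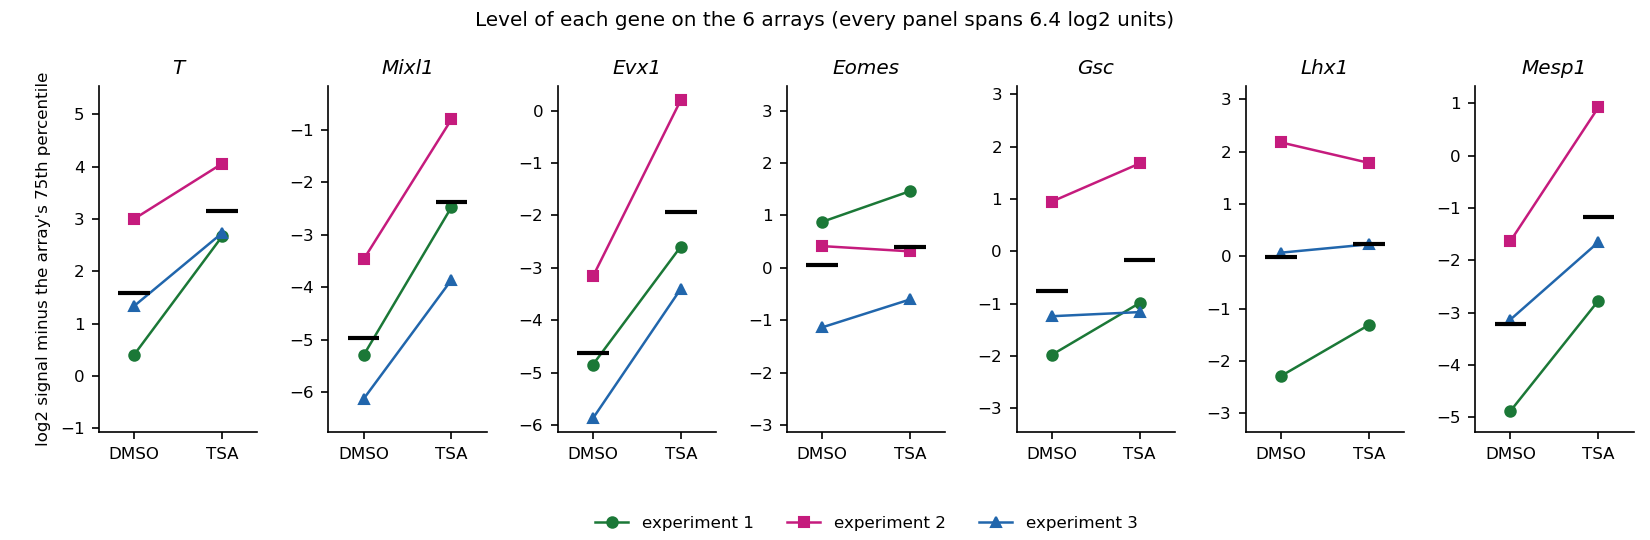
Level of each gene on the 6 arrays, as log2 signal minus the array's 75th percentile, with a line joining the DMSO and TSA arrays of each experiment and a black bar at each group's mean of 3 arrays. Experiment 2 is the highest line for all genes but Eomes, and its DMSO array lies above the lowest TSA array for all 7 genes.

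T, also called Brachyury, encodes the T-box factor that streak cells need to form posterior mesoderm. Its levels were 0.41, 3.00 and 1.34 on DMSO replicates 1, 2 and 3, and 2.66, 4.05 and 2.73 on TSA replicates 1, 2 and 3. The groups overlapped, because DMSO replicate 2 lay above TSA replicates 1 and 3. Within each experiment T was higher in TSA, by 2.26, 1.05 and 1.39. The mean difference was 1.57 ± 0.71 (SE, n = 3 per group, adjusted p = 0.469). In the blocked fit the SE was 0.28 and the adjusted p 0.0666, so T did not pass in either fit. Its 95% interval there was 0.84 to 2.30. The intervals given here are not adjusted for the number of probes tested.

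The scale between arrays bears on the value of experiment 2. Before scaling, T gave 5231 intensity units on DMSO replicate 2 and 5159 on TSA replicate 2, a difference of -0.02 on the log2 scale, while experiments 1 and 3 gave 2.34 and 1.33. Scaled to the control RNAs, its difference in experiment 2 was -0.30. Its probe was printed at 10 spots on each array, and the SD between spots was at most 0.08, against an SD of 1.31 between the DMSO arrays.

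**Figure D2:**
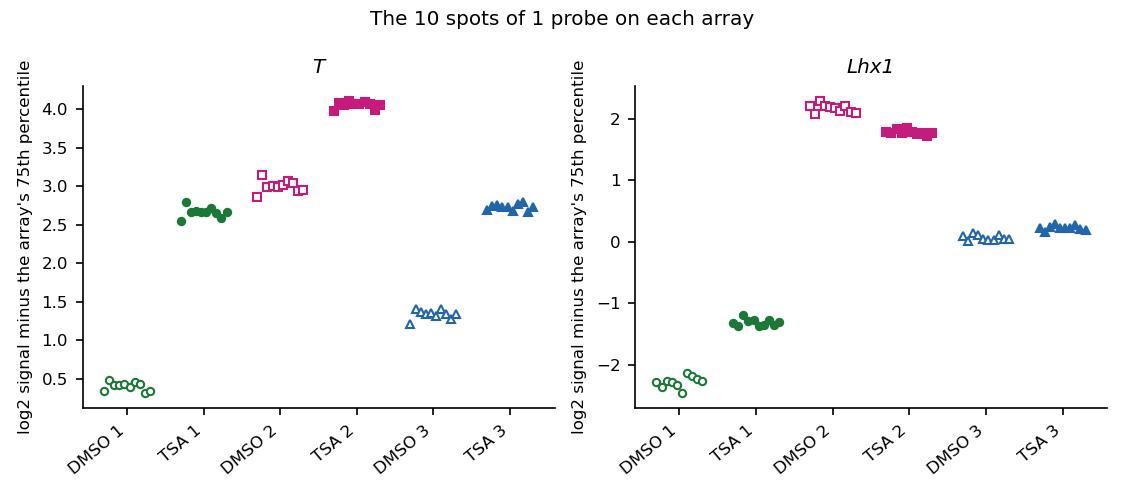
The 10 spots of the T probe (left) and of the Lhx1 probe (right) on each array, as log2 signal minus the array's 75th percentile, with open symbols for DMSO and filled symbols for TSA. The spots of an array fall close together (SD of 0.04 to 0.09), while the DMSO arrays of different experiments lie far apart.

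Mixl1 encodes a paired-like homeodomain factor of the streak that is needed for endoderm and for normal mesoderm movement. Its levels were -5.30, -3.47 and -6.14 in DMSO and -2.47, -0.80 and -3.86 in TSA. On DMSO replicate 3 the signal was 13.2 intensity units, and the dimmest signal called above background on that array had a level of -6.57. The TSA array of every experiment was the brighter one, by 2.83, 2.67 and 2.27, although DMSO replicate 2 was above TSA replicate 3. Mixl1 differed by 2.59 ± 0.94 (6.03-fold, adjusted p = 0.331), and in the blocked fit it rose by 2.59 ± 0.20 (adjusted p = 0.0311), with an interval from 2.08 to 3.11.

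Evx1 is an even-skipped homeobox gene whose transcripts mark the posterior streak. DMSO replicates 1, 2 and 3 gave levels of -4.85, -3.17 and -5.88, and TSA replicates 1, 2 and 3 gave -2.59, 0.20 and -3.40. As for Mixl1, DMSO replicate 2 exceeded only TSA replicate 3, and each experiment had its own step up of 2.26, 3.37 and 2.47. The difference was 2.70 ± 1.06 (6.50-fold, adjusted p = 0.384), the largest of the 7, and in the blocked fit Evx1 rose by 2.70 ± 0.27 (adjusted p = 0.0329), with an interval from 1.99 to 3.40.

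Mesp1 encodes a bHLH factor of nascent mesoderm that marks the precursors of the heart. It was measured by a pair of probes, of which the brighter gave -4.88, -1.63 and -3.13 in DMSO and -2.77, 0.92 and -1.65 in TSA. The TSA arrays of experiments 1 and 3 did not reach the DMSO array of experiment 2. The difference was 2.04 ± 1.13 (4.13-fold, adjusted p = 0.560), with 2.11, 2.55 and 1.48 on slides 1, 2 and 3. In the blocked fit Mesp1 rose by 2.04 ± 0.26 (adjusted p = 0.0407). The second probe differed by 2.23 ± 1.29 (adjusted p = 0.579, and 0.0407 in the blocked fit), and it was not well above background on DMSO replicate 1.

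Gsc, the homeobox gene goosecoid, is a classical gene of the organizer and the anterior streak. Its levels were -1.98, 0.95 and -1.24 in DMSO and -0.99, 1.68 and -1.16 in TSA. DMSO replicate 2 was again above TSA replicates 1 and 3, and the steps within experiments were 0.99, 0.73 and 0.08. The step of experiment 2 was -0.35 before scaling and -0.62 when scaled to the control RNAs. Gsc differed by 0.60 ± 1.00 (adjusted p = 0.820), and in the blocked fit the interval was -0.02 to 1.22 (adjusted p = 0.267).

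Lhx1, which encodes a LIM homeodomain factor of the organizer and anterior mesendoderm, had the largest SD of the members between DMSO arrays. DMSO replicates 1, 2 and 3 gave -2.29, 2.17 and 0.07, and TSA replicates 1, 2 and 3 gave -1.31, 1.78 and 0.23. The treatments thus followed the order of the experiments, with DMSO replicate 2 the highest of all 6 arrays. TSA differed from DMSO by 0.25 ± 1.23 (adjusted p = 0.943), by 0.97 on slide 1, -0.39 on slide 2 and 0.16 on slide 3. The step on slide 2 was -1.47 before scaling and -1.74 when scaled to the control RNAs. In the blocked fit the interval was -0.53 to 1.03 (adjusted p = 0.656).

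Eomes encodes a T-box factor that acts with Nodal signals in the streak and is needed for definitive endoderm, and it is also a gene of trophoblast stem cells. Its levels were 0.88, 0.41 and -1.14 in DMSO and 1.47, 0.31 and -0.60 in TSA. Unlike the other members, its highest arrays were those of experiment 1. The difference was 0.34 ± 0.69 (adjusted p = 0.852), with 0.59, -0.10 and 0.53 on slides 1, 2 and 3. On slide 2 it was -1.17 before scaling and -1.45 when scaled to the control RNAs. In the blocked fit the interval was -0.23 to 0.91 (adjusted p = 0.422). The intervals of Eomes, Gsc and Lhx1 with the block reach 1.87-fold, 2.33-fold and 2.04-fold in favour of TSA, so a change of that size is not excluded.

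**Figure D3:**
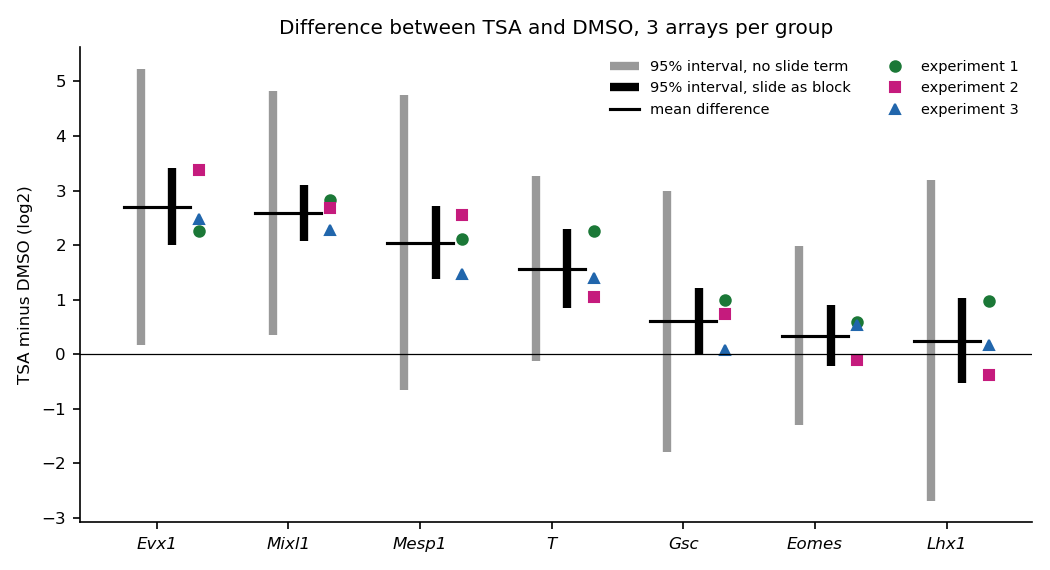
Difference between TSA and DMSO for each gene (log2), with the mean (black line), the 95% interval without a slide term (grey bar), the 95% interval blocked by slide (black bar) and the difference in each experiment (coloured symbols). The black bars of Evx1, Mixl1, Mesp1 and T lie above 0, while those of Gsc, Eomes and Lhx1 include it. The intervals are not adjusted for the number of probes tested, and T was not called.

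The 3 calls of the blocked fit depended on how the arrays were processed. They ended with quantile normalization (adjusted p = 0.0664 for Mixl1, 0.0762 for Evx1 and 0.0843 for Mesp1), the authors' table (0.0543, 0.0647 and 0.0637) and no filter on dim probes (0.0713, 0.0713 and 0.0799). With limma, quantile normalization and no filter each called 0 of the 14529 genes higher, where 2384 and 2207 had an unadjusted p under 0.05 in that direction. Normexp background correction with quantile normalization also ended them and lowered the differences to 1.07 for Mixl1, 1.17 for Evx1 and 1.14 for Mesp1. Scaling to the added control RNAs moved the median of all tested genes from 0.08 to -0.41. It left Evx1 called (2.20, adjusted p = 0.0345), ended the calls of Mixl1 (2.09, adjusted p = 0.0555) and Mesp1 (1.55), gave 1.07 for T, and turned Eomes (-0.16) and Lhx1 (-0.25) below 0. T joined the calls with median centring (adjusted p = 0.0415), with probes above background on all 6 arrays (0.0325), with array weights (0.00265, where Eomes was called too, at 0.53), and without both arrays of slide 2 (1.82, adjusted p = 0.0257) or of slide 3 (1.66, adjusted p = 0.0282). Mixl1, Evx1 and Mesp1 stayed called without both arrays of any 1 slide, where 2 pairs remain. Without slide 1 or slide 3 that fit gave all probes 1 common variance.

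The members varied widely between experiments. The SD between the 3 DMSO arrays was 1.06 for Eomes, 1.31 for T, 1.36 for Mixl1, 1.37 for Evx1, 1.52 for Gsc, 1.62 for Mesp1 and 2.23 for Lhx1. Over all tested genes the median of this SD was 0.21 and the 95th percentile 0.72, so the untreated level of each member varied more between experiments than that of at least 98.0% of tested genes. In the TSA arrays the SD ran from 0.78 for T to 1.89 for Mesp1, against a median of 0.42. With treatment held, a moderated F-test of the slides gave an unadjusted p between 2.20e-04 and 0.00523 for the 7 members, as 17.3% of tested genes had one under 0.05. After adjustment over all probes none passed (adjusted p of 0.169 to 0.236), and 0% of tested genes did, the lowest adjusted p of any probe being 0.0552.

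Experiment 2 was the high one. DMSO replicate 2 was the highest DMSO array for 6 of 7 members, by 2.13 for T, 2.20 for Evx1, 2.25 for Mixl1, 2.37 for Mesp1, 2.56 for Gsc and 3.28 for Lhx1 over the mean of the other DMSO arrays. TSA replicate 2 was the highest TSA array for the same 6, by 1.36 for T and up to 3.20 for Evx1, and 34.6% of tested genes had experiment 2 highest in both treatments. The values of TSA replicate 2 depend on the scaling between arrays. Before scaling, T gave 5159 intensity units on TSA replicate 2 and 5868 on TSA replicate 3. The added control RNAs lay at 5.06 on TSA replicate 2, against 3.58 and 3.18 on TSA replicates 1 and 3. Eomes deviated by 0.54 in DMSO and -0.12 in TSA. The median deviation over the members was 2.25 in DMSO and 2.37 in TSA, against 0.06 and 0.37 over all tested genes. Once slide 2 was left out, a setting chosen after these values were seen, 5 of 7 members had all TSA arrays above all DMSO arrays, as did 28.1% of tested genes.

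The levels of Mixl1 and Evx1 followed each other over the 6 arrays. After each gene was centred on its own mean, the root mean square distance between them was 0.33 log2 units, against 1.76 and 1.91 for their own distance from a flat profile, and each was the gene nearest to the other among 13230 candidates. Wnt3a, a Wnt ligand of the posterior streak, came next for both (0.57 from Mixl1 and 0.50 from Evx1). T was nearest to Adra2a, an adrenergic receptor gene (0.16), and to the collagen gene Col13a1 (0.22), while the nearest to Mesp1 were Aldh1a2, which encodes a retinoic acid synthesising enzyme (0.25), and Myom2 (0.37). Gsc lay closest to Tppp3 (0.35), Rsph9 (0.36) and Zfp503 (0.38), and Eomes to Lzts1 (0.38). Among pairs of members the largest distance was 2.07, between Eomes and Mesp1. These distances rest on 6 arrays with 3 experiments in common and carry no test.

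Lhx1 was nearest to Lhx1os (0.23), a noncoding RNA gene that neighbours it on the other strand, then to Cpxm2 (0.30) and to Sox17, an endoderm factor (0.31). Lhx1os differed between treatments by 0.06 ± 1.08 (adjusted p = 0.985), with 0.76, -0.33 and -0.24 on slides 1, 2 and 3. Of the 14 genes that flank the members and are named on the array, 10 were tested, and 0 passed without or with the block (lowest adjusted p of 0.463 and 0.124). Their differences ran from -0.69 for Lin9, beside Mixl1, to 0.80 for Mesp2, a bHLH gene beside Mesp1. Hibadh, beside Evx1, differed by -0.01 ± 0.23, and Pde10a, beside T, by 0.19 ± 0.24.

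Of the closest relatives of the members, 6 were tested. Tbx21, a T-box gene of T helper cells and a relative of Eomes, rose by 3.21 ± 0.34 (adjusted p = 0.0248), with levels of -4.30, -4.38 and -4.51 in DMSO and -1.05, -0.61 and -1.89 in TSA. Its DMSO arrays lay close together, and its deviation on DMSO replicate 2 was 0.03. Tbx6, a T-box gene of paraxial mesoderm, differed by 3.03 ± 1.21 (adjusted p = 0.391, and 0.0363 in the blocked fit) and Lhx5, a relative of Lhx1, by 1.49 ± 0.52 (adjusted p = 0.314, and 0.0425 with the block). Mesp2 differed by 0.80 ± 0.40 (adjusted p = 0.516, and 0.124 with the block).

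Around the members, 63 of 66 listed genes of the streak pathway were tested. None rose or fell in limma without the slide (1.36% of tested genes were called higher and 0.0551% lower). In that fit 8 had an unadjusted p under 0.05, all toward TSA, as did 12.1% of tested genes. In the blocked fit 9 rose (3.19% of tested genes) and 0 fell (0.145%). The median difference of the 63 genes was 0.26, against 0.08 over all tested genes. Among 9 tested ligands 1 rose with the block, Wnt3a (2.75 ± 1.17, adjusted p = 0.430, and 0.0311 with the block). Its levels were -3.98, -0.71 and -4.19 in DMSO and -1.07, 1.74 and -1.30 in TSA, so its DMSO replicate 2 also lay above TSA replicates 1 and 3. Nodal, the signal that induces the streak, differed by 1.16 ± 0.33 (adjusted p = 0.210, and 0.0600 with the block), and its deviation on DMSO replicate 2 was only 0.27. Fgf8, a growth factor of the streak, differed by 1.39 ± 0.78 (adjusted p = 0.567, and 0.0759 with the block), Bmp4 by 0.84 ± 0.52 (adjusted p = 0.598, and 0.107 with the block), and Wnt3, the Wnt ligand needed to start the streak, by 0.37 ± 0.35 (adjusted p = 0.694).

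Receptors and nuclear mediators had a median of -0.12 over 19 tested genes and no call without or with the block. Their mean was lower in TSA for 12 of 19, and 9 were lower on all 3 slides and 3 higher. Acvr2a, an activin and Nodal receptor, differed by -0.32 ± 0.18 (adjusted p = 0.576), and Bmpr1a, a BMP receptor named after its values were seen, by -0.72 ± 0.54 (adjusted p = 0.648). The differences of Bmpr1a were -0.15, -1.92 and -0.08 on slides 1, 2 and 3. Tdgf1, the Nodal co-receptor, differed by 0.82 ± 0.33 (adjusted p = 0.391) and Lef1, a nuclear partner of beta-catenin, by 0.59 ± 0.28 (adjusted p = 0.490). The 12 inhibitors and feedback genes had a median of 0.22 and no call in either fit. Lefty1 and Lefty2, secreted Nodal inhibitors, differed by -0.01 ± 0.54 and 0.73 ± 0.64. Cer1, an inhibitor secreted by anterior endoderm, gave -3.08, 2.37 and 0.39 in DMSO and -3.36, 2.23 and -0.58 in TSA. As for Lhx1, the order of its arrays was that of the experiments.

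The other streak and early mesoderm genes had a median difference of 1.32, and 8 of 23 tested rose in the blocked fit (3.19% of all tested genes). They included Msgn1 (3.87 ± 1.10, adjusted p = 0.203, and 0.0311 with the block) and Tbx6, both of paraxial mesoderm, and the posterior gene Cdx4 (2.39 ± 0.68, adjusted p = 0.202, and 0.0311 with the block). Msgn1 was above background on 2 of 3 DMSO arrays and Cdx4 on 1, so their fitted differences rest in part on signals at background. Snai1, which represses epithelial genes in streak cells, differed by 1.76 ± 0.58 (adjusted p = 0.280, and 0.0634 with the block). Foxa2, of the anterior streak and endoderm, differed by -0.50 ± 1.16 (adjusted p = 0.875). In the blocked fit its SE was 0.20 and the adjusted p 0.259, with -0.41, -0.29 and -0.78 on slides 1, 2 and 3.

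**Figure D4:**
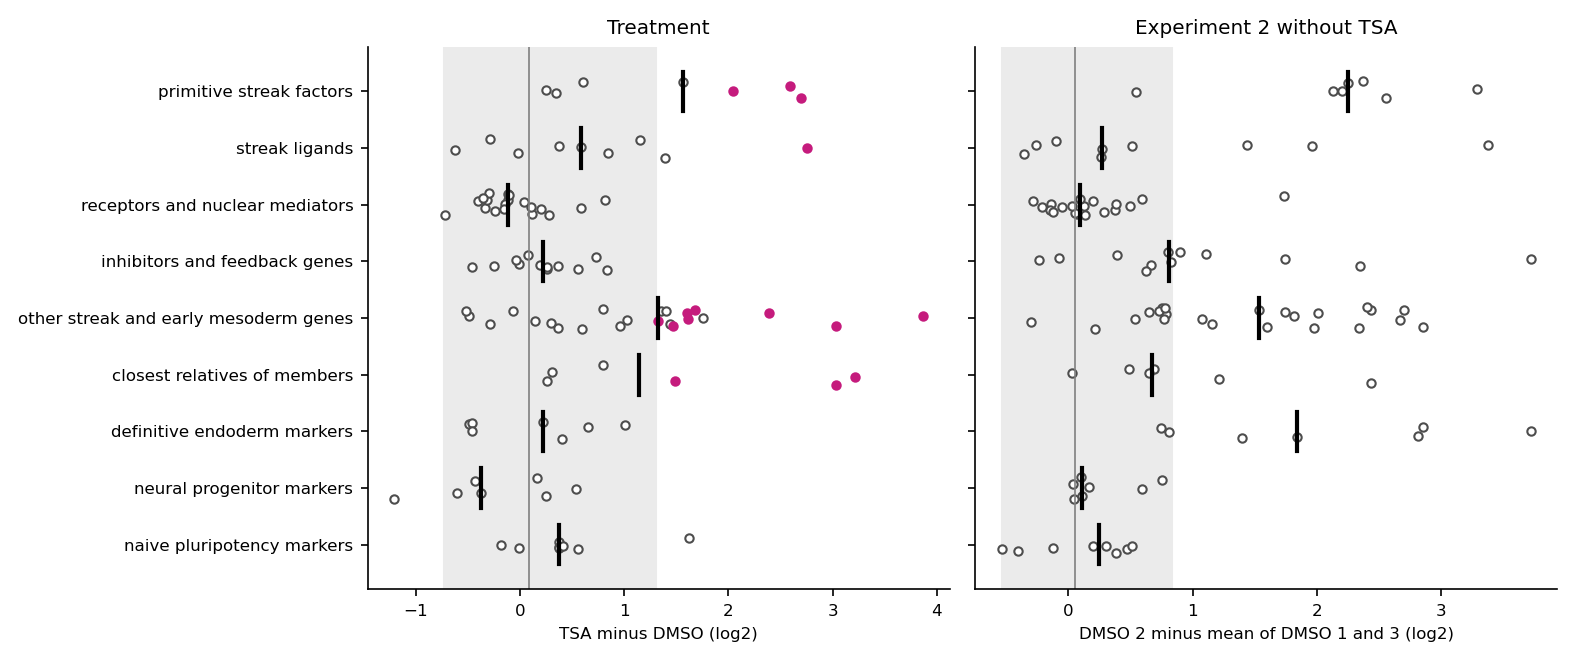
Each circle is a tested gene of a list, with the list's median as a black bar, against its difference between TSA and DMSO (left) and the deviation of DMSO replicate 2 from the mean of the other DMSO arrays (right), both in log2 units. Grey bands span the 5th to 95th percentile of all tested genes, and filled circles on the left are genes called in the blocked fit. On the left the medians of the members (1.57) and of the other streak genes (1.32) are the furthest to the right, and on the right those of the members (2.25) and of the definitive endoderm markers (1.84) are.

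Markers of other cell types were set beside these values. Definitive endoderm markers shared the deviation of experiment 2, with a median over 7 tested genes of 1.84 in DMSO and 2.0 in TSA, while their median difference between treatments was 0.22. Their mean level ran from -1.98 to 0.67 over the DMSO arrays and from -1.77 to 1.00 over the TSA arrays, and all 7 were above background on all 6 arrays. Neural progenitor markers (7 tested of 8) had a deviation of 0.11 and 0.47 and a median difference of -0.38, and 3 of the 7 had a higher mean in TSA. On all 3 slides 4 were lower and 2 higher in TSA, and none passed without or with the block. Pax6, with the smallest p of the list, differed by -1.21 ± 0.24 (adjusted p = 0.0816, and 0.0572 with the block). It was lower on all 3 slides, by -1.02, -1.51 and -1.10. The Notch target Hes5, named after its values were seen, differed by 0.54 ± 0.29 (adjusted p = 0.546). Its differences were 0.30, 1.09 and 0.23 on slides 1, 2 and 3. The mean level of the neural progenitor markers ran from -1.65 to -1.36 in DMSO and from -1.95 to -1.52 in TSA. Primed epiblast markers, a state the cells pass through, were above background on all 6 arrays for all 5 tested genes and had a median difference of -0.22.

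Naive pluripotency markers (8 tested) had a median difference of 0.38 and deviations of 0.25 and -0.22 in experiment 2. Trophectoderm markers had a median difference of 0.66 and deviations of 0.83 and 1.23 over 6 tested genes. Their mean level ran from -0.24 to 1.56 in DMSO and from 0.40 to 2.24 in TSA. With the block 1 of them rose, Cdx2 (1.46 ± 1.00, adjusted p = 0.626, and 0.0392 with the block), which is also among the listed streak genes. Foxa2 and Cer1, listed as definitive endoderm markers, are among the listed streak pathway genes too, as are the relatives Tbx6 and Mesp2. Elf5, a defining trophoblast gene, was not tested because it was above background on fewer than 3 arrays. Of 7 visceral endoderm markers 5 were tested, with a median difference of 0.57, and 1 of them rose with the block, Amn (1.84 ± 0.50, adjusted p = 0.179, and 0.0318 with the block). Ttr and Apoa1, defining genes of that tissue, were above background on none of the arrays. The part of these cell types in the values of the members was not tested.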

How the data were processed

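Total RNA of 6 samples was labelled with Cy3 and hybridised to single-colour Agilent arrays. Per the file headers, the deposited intensity values come from Agilent Feature Extraction (10.7 in the submitters' processing notes), which subtracted background and detrended each array without scaling between arrays. The authors' deposited log2 table, whose normalization is not given in the sources used here, served as an alternative.

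Without control and outlier spots, processed signals were taken as log2 minus the array's 75th percentile, and spots of a probe were averaged. Probes well above background on at least 3 of 6 arrays (28158 of 41174) were tested with limma 3.58.1 (lmFit and eBayes, R 4.3.3), two-sided, and p-values were adjusted over all of them by Benjamini-Hochberg. Probes were named through RefSeq accessions or symbols: 27484 had 1 gene and 13690 none. A gene is represented by its brightest tested probe. Errors are moderated standard errors. The fits were run on simulated data, whose slides varied less than those of the members and held no deviant array. That run therefore does not cover the spread seen in the members. Python 3.11.15, pandas 2.3.3 and matplotlib 3.10.9 were used for tables and figures.

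The replicate number is the slide number. Deviations from the group mean correlated at 0.484, 0.614 and 0.585 between the DMSO and TSA arrays of a slide, and at -0.568 to 0.092 otherwise, which pairs the samples by number. Blocked values are given for the members and, for other genes with a stated difference, at least where they change a call or lie near it. The p-values without the slide reflect the spread of samples that the labels call independent experiments. Those of the blocked fit reflect the spread of the TSA minus DMSO differences between slides, with 2 residual degrees of freedom. The moderation adds a prior taken from all tested probes, of 2.64 degrees of freedom without the slide and 3.03 with the block. An exact permutation test of 3 arrays against 3 cannot go below 0.1, and for the members it gave 0.2 to 0.9.

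The members and lists were chosen with earlier results of these data known. Named are the members, up to 3 genes per list with the smallest p, a fixed set of pathway genes, the genes nearest in profile and the flanking genes, of which some are given by counts only. Alternatives were other normalizations and filters, the authors' table, outlier spots kept, an intensity trend with robust moderation, array weights, the slide block, and each array or slide left out. Scaling to the 8 added control RNAs, and the block under the other settings, were added after seeing the data. Normexp used median spot signals with an offset of 50.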

Additional observations from a re-analysis of the deposited data

Results flagged for a closer look

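The difference of Lhx1 between TSA and DMSO was below 0 in experiment 2 (-0.39) and above 0 in experiments 1 (0.97) and 3 (0.16). Eomes showed the same pattern at a smaller size, with -0.10 in experiment 2 against 0.59 and 0.53. The size of both values of experiment 2 depended on the scaling between arrays. Before scaling they were -1.47 for Lhx1 and -1.17 for Eomes, and scaled to the control RNAs -1.74 and -1.45. Each experiment has 1 pair of arrays, so whether the experiments differ in their response was not tested.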

How the results depend on the processing

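The fit with the replicate block called 3 members, and the fit without it called 0 under every setting tried. The count of other streak pathway genes called was 0 without the slide, 2 with array weights and 9 with the replicate block (3.19% of tested genes called higher). The block count of 3 members became 0 with quantile normalization or no filter (0% of tested genes called higher), normexp (1.8%) or the authors' table (1.61%), 5 with array weights (17.2%) and 1 with scaling to the control RNAs (0.379%). T, Mixl1, Evx1 and Mesp1 kept a positive difference in every setting tried, without and with the block. Eomes turned to -0.16 with scaling to the control RNAs and ran from -0.25 to 0.84 with an array or slide left out. Gsc turned to -0.12 with array weights and ran from -0.32 (without TSA replicate 2) to 1.45, and was also below 0 without DMSO replicate 1 (-0.01). Lhx1 turned to -0.14 with array weights and -0.25 with the control RNAs, ran from -0.89 to 1.34 with arrays left out, and with the block was -0.12 without slide 1 and up to 0.57 without slide 2. The count of members differing between slides, 0, became 5 with array weights (4.34% of tested genes), 2 with the control RNAs (9.7%) and 4 to 7 with an array left out (0.853% to 58.3%). The 58.3% came without DMSO replicate 2. With any array left out, 1 residual degree of freedom remains. Without an array of slide 1 or slide 3, that fit gave all probes 1 common variance. Members with no overlap between groups numbered 0, 2 with the control RNAs (2.68% of tested genes) and 5 without both arrays of slide 2 (28.1%), both chosen after seeing the data. A mean over probes applied only to Mesp1. The sizes of the differences of Mixl1, Evx1 and Mesp1 are uncertain, as their signals were low on some DMSO arrays. Their brightest probes went down to 13.2, 15.8 and 21.5 intensity units. Normexp lowered the differences to 1.07, 1.17 and 1.14.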
